A study of Mus musculus with 36 samples.

Results

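CITE-seq reads mRNA and surface proteins from the same single cells, the proteins through antibodies that carry a DNA barcode. It was carried out on 4 mouse submandibular salivary glands at about postnatal day (P) 70, 2 from control and 2 from double-mutant mice, which gave 8 of the 36 samples of the study, an RNA table and an antibody table per gland. Double-mutant mice carried K14-Cre, a floxed β-catenin allele that gives gain of function when recombined, floxed Bmpr1a alleles that give loss of function, and the Cre-inducible R26-EYFP reporter. Control mice carried K14-Cre and R26-EYFP with neither floxed gene, so that Cre and the reporter were common to all 4 animals. K14-Cre acts in the basal epithelium, and cells that descend from it keep the recombined alleles. By the labels and methods each animal gave 1 gland and was processed separately within a single batch, and a gland is the unit of replication here. Barcodes with 100 to 2499 genes and under 15% mitochondrial unique molecular identifiers (UMIs) were kept, which left 2535 of 3095 barcodes, against 25881 cells kept in the whole study. Control 1 held 672 cells, control 2 held 728, double-mutant 1 held 638 and double-mutant 2 held 497.

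The submandibular gland makes saliva in acini and modifies it in ducts. In mice the granular ducts also secrete tissue kallikreins and epidermal growth factor, more abundantly in males because these genes answer to androgens. Wnt signals act through β-catenin and BMP signals through receptors such as Bmpr1a. CD11b, CD11c and SIRPα are surface proteins of myeloid cells, and IA/IE is the major histocompatibility complex (MHC) class II heterodimer with which macrophages, dendritic cells and B cells present peptides to T cells.

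The kept cells of the controls held more UMIs. They held 1748518 and 2205865 UMIs, against 1101756 and 670322 in the double mutants. Antibody counts of the kept cells were 5399891, 1864783, 1212923 and 1493640, in the order control 1, control 2, double-mutant 1, double-mutant 2 used for every set of 4 values below, and the median cell held 1416.5, 777, 855.5 and 866 of them, fewest in control 2. The median cell held 1167, 1685, 837.5 and 810 UMIs. Antibody counts were very uneven, since 98 of the 2535 barcodes, each with over 10 times the median antibody count of its gland, held 74.4%, 55.4%, 35.2% and 61.1% of all antibody counts. Both control libraries held cells of both sexes by their transcripts, which 1 animal would not give. Whether they are independent replicates was not tested, and all p-values here treat them as such. Among cells with UMIs of Xist or of a Y-linked gene but not both, Y-linked cells made up 29.5% in control 1, labelled male, and 33.7% in control 2, labelled female, against 4.76% and 7.03% in the double mutants, both labelled female. Counted in UMIs, Y-linked transcripts made up 28.4%, 30.1%, 7.66% and 8.33% of the Xist and Y-linked total, while in each of the 26 Drop-seq glands of the study the rarer kind took at most 3.10%. Sex mixing and genotype could not be told apart for the glands as a whole, so results on genes or proteins that differ between the sexes are also given for the cells with at least 1 Xist UMI, of which there were 106, 111, 142 and 122. They come from the same libraries, so they do not fully separate sex from genotype either.

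The first comparison asked which transcripts differed between double-mutant and control glands when the UMIs of all kept cells were summed per gland. Of 10058 genes tested, 929 were higher (9.24%) and 450 were lower (4.47%) in double mutants by edgeR's quasi-likelihood test at a Benjamini-Hochberg adjusted p under 0.05. Levels are given as CPM, the UMIs of a gene divided by all UMIs of the gland on the usual counts-per-million scale, and differences on the log2 scale, double mutant minus control, with their standard error. Trimmed-mean scaling was used and set the median over all genes at 0.0018, while scaling to library totals alone moved that median by 0.73 and gave 2998 higher and 109 lower. In these summed glands, fewer cells of a type and less RNA per cell cannot be told apart.

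The floxed genes do not check the labels, because the paper reports that the mutations of β-catenin and Bmpr1a could not be detected. Where their reads lie relative to the recombined exons was not examined here. Bmpr1a, the BMP receptor, stood at 12.6, 14.96, 16.3 and 16.4 CPM and Ctnnb1, which encodes β-catenin, at 46.9, 56.7, 73.5 and 94.0 CPM, with differences of -0.46 ± 0.36 (adjusted p = 0.41) and -0.037 ± 0.27 (adjusted p = 0.94). Cre gave 3 to 6 UMIs in every gland and was not tested. The EYFP reporter was lower in double mutants, at 53.8, 43.1, 20.9 and 10.4 CPM, a difference of -2.25 ± 0.39 (adjusted p = 0.014).

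Targets of both pathways showed a small number of clear differences. Of 9 tested genes of the Wnt feedback list, 3 rose and none fell, with a list median of 0.067. Nkd1, an inhibitor that Wnt signals induce, had no UMI in either control and 16.3 and 14.9 CPM in the double mutants, at least 20.8-fold higher when 3 counts are allowed over the controls. Wif1, a secreted Wnt antagonist, likewise had none in the controls and 21.8 and 16.4 CPM in double mutants, at least 26.03-fold higher. Notum, which removes the lipid that Wnt ligands need, stood at 1.72, 1.81, 12.7 and 11.9 CPM (2.06 ± 0.51, adjusted p = 0.035). The groups did not overlap for any of these genes. A cluster named cancer stem cell (CSC)-like held 0, 0, 8 and 7 cells of the glands. Nkd1, Wif1 and Notum are among the markers it was named from, and Nkd1 is among its leading genes. The part of these cells in the gland values was not tested. Of 9 tested genes of the BMP list, 2 rose, the ligand Bmp2 (2.56 ± 0.63, adjusted p = 0.035) and the inhibitory Smad7 (1.63 ± 0.35, adjusted p = 0.024), with a list median of -0.072. With any 1 of the 4 glands left out, Notum (1.91 to 2.17) and Smad7 (1.52 to 1.75) no longer passed the test, and Bmp2 did not pass without either control (2.11 without control 1 and 3.31 without control 2).

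The plot of gene lists sets these lists beside the others. Epithelial genes moved in both directions, and the duct secretory genes moved furthest.

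**Figure D1:**
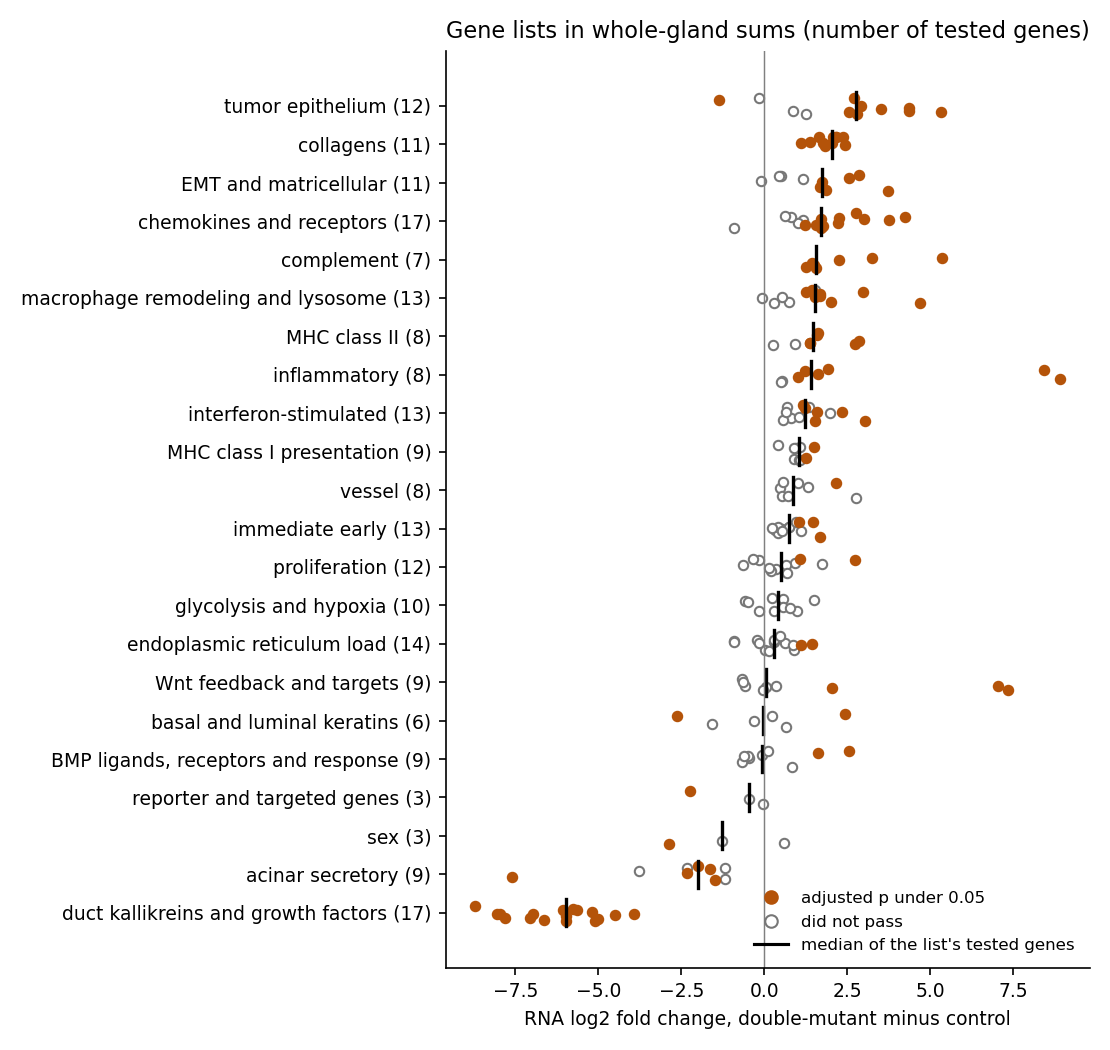
Difference between double-mutant and control glands (x axis, log2, edgeR, whole glands) for every tested gene of 22 gene lists (y axis, number of tested genes in brackets), with filled points for genes that passed the test, open points for the others and a bar at the list median. All 17 duct kallikreins and growth factors lie below 0 and all 11 collagens above it, and points of genes without a UMI in the controls, such as Nkd1, Wif1 and S100a8, sit at fitted values that depend on the prior count.

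All 17 tested genes of the duct list fell, with a median of -5.98. Their summed level was 16404 and 14145 CPM in the controls and 396 and 1152 CPM in the double mutants. Klk1b16 (chr7:44136767-44141610, GRCm38.p6), a tissue kallikrein, stood at 968, 789, 6.35 and 4.48 CPM, a difference of -7.96 ± 0.40 (adjusted p = 8.5e-05). Egf (chr3:129677565-129755316), the growth factor of the granular ducts, stood at 850, 783, 22.7 and 19.4 CPM (-5.96 ± 0.34, adjusted p = 8.5e-05). Both controls were far above both double mutants for each of these genes. Ren1, the protease renin, fell by 6.96 ± 0.52 on the log2 scale (adjusted p = 0.00047). Klk1b family members are near-identical in sequence and the split of reads among them is uncertain. Because granular duct genes are higher in males, the mixed sex of the controls bears on this list. In cells with Xist 13 of 15 tested members were still lower, with a median of -5.08, against 42 lower among all 3792 genes tested there. These cells come from the same mixed libraries, so they cannot separate sex from genotype. The part of free RNA in their values was not tested. In the Drop-seq glands the summed level of the list in P90 controls had a median of 135340 CPM in males and 52674 CPM in females, and of 13729 and 7099 CPM in P90 double mutants. At P40 the medians were closer, 37680 and 16386 CPM in controls and 29607 and 10777 CPM in double mutants, with overlapping ranges. Sex here is the label, and 1 P90 double mutant labelled female and 1 P40 double mutant labelled male went against it by their transcripts.

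Acinar secretory genes were also lower. Of 9 tested, 5 fell and none rose, with a median of -2.001. Prol1, an abundant secreted proline-rich protein, stood at 53269, 52473, 20490 and 13458 CPM (-2.34 ± 0.44, adjusted p = 0.018), and Aqp5, the water channel of acinar cells, at 267, 240, 161 and 104 CPM (-1.62 ± 0.31, adjusted p = 0.019). Dcpp1, a member of the list that in the paper marks a separate luminal cell type, was at 2257 CPM in control 1 but at 13.6, 6.35 and 13.4 CPM in the other 3 glands, so its call rested on control 1 (-7.59 ± 1.95, adjusted p = 0.039, and -1.31 without that gland). In the Drop-seq glands its median was 1945 CPM in controls and 12680 CPM in double mutants, with overlapping ranges. The call of Aqp5 was lost without double-mutant 2 (-1.29, adjusted p = 0.11). The share of cells in the acinar-like class, which was named from its markers, was 18.8%, 18.7%, 9.40% and 8.05%, and its part in these differences was not tested.

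Genes of the tumor epithelium list rose, 8 of 12 with 1 lower and a median of 2.75. This list was chosen with results from the same study known and its direction is not independent evidence. Clu, a secreted chaperone, stood at 13.2, 14.96, 586 and 358 CPM (4.37 ± 0.39, adjusted p = 0.0010) and S100a6, a calcium-binding protein, at 126, 77.1, 1171 and 1114 CPM (2.79 ± 0.32, adjusted p = 0.0035). Slpi, a secreted inhibitor of leukocyte proteases, stood at 34.3, 8.61, 1637 and 1094 CPM (5.33 ± 0.61, adjusted p = 0.0035). Of its 2616 UMIs, 96.6% lay in the class of immunoglobulin-producing cells, which held 3, 4, 37 and 21 cells and has Slpi among its 10 leading genes, so that Slpi moved with those cells. The exception was Nupr1, a stress-induced nuclear protein, at 697, 591, 476 and 340 CPM (-1.35 ± 0.30, adjusted p = 0.027). Among keratins, Krt19 of luminal cells rose (2.86, 5.44, 31.8 and 46.2 CPM, 2.43 ± 0.43, adjusted p = 0.015) and Krt14 of basal cells fell (18.9, 23.6, 9.08 and 0 CPM, -2.64 ± 0.68, adjusted p = 0.040), out of 6 tested. Krt14 was the gene whose promoter drives Cre, and its UMIs were few, 33, 52, 10 and 0. Its call was lost without control 1 (-2.86), control 2 (-2.47) or double-mutant 2 (-1.86), and that of Nupr1 without either double mutant (-1.71 without the first and -1.07 without the second).

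The single genes with the widest rise, among those with a mean of at least 50 CPM, were secreted defense proteins, immunoglobulin light chains, globins and the ferritin gene Ftl2. Pla2g2a (chr4:138831857-138835186), a secreted phospholipase that attacks bacterial membranes, had no UMI in either control and 755 and 770 CPM in the double mutants, at least 1003-fold higher. Ltf, the iron-binding milk and saliva protein lactoferrin, was at 0, 0, 374 and 319 CPM, at least 466-fold higher. Neither gene had a single UMI among 1400 control cells. Pla2g2a is among the leading genes of the CSC-like cluster, which had 8 and 7 cells in the double mutants. The part of that cluster in its rise was not tested. The light chain Iglc1 rose from 3.43 and 2.27 to 1185 and 7611 CPM (9.81 ± 1.01, adjusted p = 0.0020), and the α-globin Hba-a2 from 4.58 and 4.53 to 2216 and 4122 CPM (8.68 ± 0.47, adjusted p = 8.5e-05). The globins moved with a cluster of 9 erythroid-like cells that held 0, 0, 4 and 5 cells of the glands. Without these cells and the immunoglobulin-producing ones, Hba-a1 differed by 0.020 and Hbb-bs by 1.80, against 6.04 and 5.99 with them. Globin, Klk1b, immunoglobulin and ferritin genes have near-identical copies, and the level of any one of them is uncertain.

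Collagen genes rose together. All 11 collagens tested were higher, with a median of 2.04, among them the fibrillar Col1a1 (40.6, 38.5, 327 and 351 CPM, 2.38 ± 0.26, adjusted p = 0.0028) and Col3a1 (128, 111, 775 and 834 CPM, 2.04 ± 0.26, adjusted p = 0.0049). In the list of matricellular and epithelial-mesenchymal genes 7 of 11 rose, including Sparc, a collagen-binding protein (140, 125, 720 and 718 CPM, 1.73 ± 0.26, adjusted p = 0.0086), and fibronectin, Fn1 (2.55 ± 0.41, adjusted p = 0.012). Osteopontin, Spp1, rose from 26.3 and 14.96 to 271 and 634 CPM (3.72 ± 0.45, adjusted p = 0.0042), but differed by -0.83 in cells with Xist. Fibroblast-like cells made up 3.42%, 3.57%, 8.62% and 9.46% of the cells, and their part in the collagen difference was not tested.

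Immune genes rose list by list. Complement rose in 7 of 7 genes with a median of 1.56, the chemokine list in 12 of 17 with a median of 1.71, the macrophage list in 8 of 13, the inflammatory list in 6 of 8 and the interferon list in 6 of 13, and no member of these lists fell. In cells with Xist the medians were, in the same order, 0.71, 1.17, 0.67, 0.23 and 1.09. At most 1 gene of each list passed there, where 54 of all 3792 genes were called higher. C3, the central complement protein, stood at 43.5, 24.9, 237 and 295 CPM (2.25 ± 0.32, adjusted p = 0.0074). Ccl8, a monocyte chemoattractant, stood at 1.14, 0.907, 29.95 and 38.8 CPM (4.26 ± 0.49, adjusted p = 0.0036) and Cxcl10, an interferon-induced chemokine, at 6.86, 4.08, 32.7 and 121 CPM (3.03 ± 0.61, adjusted p = 0.021, but 0.054 without control 2). The calprotectin subunits S100a8 and S100a9, which neutrophils and monocytes carry, had no UMI in the controls and 68.1 and 46.2 CPM, and 47.2 and 32.8 CPM, in the double mutants, at least 78.8-fold and 55.0-fold higher. Lyz2, the lysozyme of macrophages, rose from 98.9 and 112 to 1088 and 1660 CPM (2.97 ± 0.30, adjusted p = 0.0020). Mki67, a marker of dividing cells, rose as well (5.15, 4.99, 41.8 and 74.6 CPM, 2.75 ± 0.39, adjusted p = 0.0077), although only 2 of 12 proliferation genes passed the test.

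MHC class II genes rose in 6 of 8 cases with a median of 1.48, but unequally. H2-Eb1, the β chain of IE, stood at 159, 139, 1600 and 1922 CPM (2.84 ± 0.28, adjusted p = 0.0016). H2-Aa and H2-Ab1, the α and β chains of IA, stood at 792, 507, 1831 and 2221 CPM (0.93 ± 0.30, adjusted p = 0.074) and at 687, 458, 2243 and 2646 CPM (1.38 ± 0.30, adjusted p = 0.024). Cd74, the invariant chain that escorts both, stood at 2063, 1579, 7228 and 8284 CPM (1.38 ± 0.30, adjusted p = 0.026). The double mutants were above the controls for all 4 genes. The call of Cd74 was lost without either double mutant (1.40 and 1.36) and that of H2-Ab1 also without control 2 (1.11), while without control 1 H2-Aa passed (1.21, adjusted p = 0.037). H2-Eb1 kept its call throughout. In cells with Xist none of 6 tested class II genes passed the test, their median was 0.30, and H2-Aa differed by -0.24. Few genes passed there at all, 54 higher and 42 lower of 3792, so the lack of calls says little about class II genes. The promoters of H2-Aa and H2-Eb1 are shown because these subunits moved apart within one cell class, as described further on. Each is the stretch from 250 bases before to 50 bases after the RefSeq start on GRCm38.p6, with the Y-box core of class II promoters, GATTGG or its reverse complement CCAATC, in capitals. H2-Aa lies on the minus strand, at chr17:34287774-34288073, and has GATTGG 49 bases before its start, and H2-Eb1 lies on the plus strand, at chr17:34305617-34305916, and has GATTGG 60 and CCAATC 35 bases before its start. The letters occur on either strand in 16.1% of all 32851 promoter windows of this length and in 5 of the 6 windows found for 5 of the 8 class II genes.
H2-Aa: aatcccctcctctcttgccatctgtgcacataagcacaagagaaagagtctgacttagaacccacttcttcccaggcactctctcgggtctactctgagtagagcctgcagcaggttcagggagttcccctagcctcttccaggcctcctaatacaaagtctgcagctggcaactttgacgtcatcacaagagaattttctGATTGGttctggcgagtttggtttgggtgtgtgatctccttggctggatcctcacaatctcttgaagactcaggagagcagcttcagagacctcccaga
H2-Eb1: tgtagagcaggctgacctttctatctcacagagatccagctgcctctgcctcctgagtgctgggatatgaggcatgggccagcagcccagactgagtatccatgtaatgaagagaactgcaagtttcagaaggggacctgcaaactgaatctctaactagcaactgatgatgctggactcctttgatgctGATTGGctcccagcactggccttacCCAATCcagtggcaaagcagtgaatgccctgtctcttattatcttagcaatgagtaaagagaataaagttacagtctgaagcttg

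The same comparison was available in independent glands, the 26 Drop-seq glands of P40 and P90 mice, in which 1224 of 8768 genes were higher (14%) and 670 lower (7.64%) in double mutants (4706 and 46 with library totals). Of the 1379 genes called at P70, 889 were tested there and 797 of these had the same sign (89.7%), against 69.3% of the 7904 genes tested in both. Genes called in both numbered 456, which is 51.3% of the P70 calls tested in Drop-seq glands and 26.1% of the Drop-seq calls tested at P70, and 453 of the 456 had the same sign. Slpi, Ltf and H2-Eb1 rose in both, with Drop-seq differences of 4.497, 6.54 and 3.81. Pla2g2a had no UMI in 12 of 12 Drop-seq controls and a median of 3.39 CPM, with a maximum of 127 CPM, in the double mutants. Ftl2, a ferritin light chain gene, held 0 to 4 UMIs in Drop-seq controls and 1 to 245 in double mutants, and at P70 stood at 0, 0, 162 and 367 CPM. Egf fell by 1.99 there, less than at P70. All tested collagens and complement genes rose in Drop-seq glands too (8 of 8 and 5 of 5), whereas 1 of 11 acinar genes fell there and Hbb-bs differed by -0.53.

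The second comparison took the antibody counts of the same cells. The panel gave 61 antibodies, 4 of them control immunoglobulins (IgG) with no target in the gland. Over all kept cells 9 antibodies were higher (14.8%) and 3 lower (4.92%) in double mutants, and without the 98 barcodes of very high antibody count 8 were higher (13.1%) and 8 lower (13.1%). CD11b, SIRPα, Delta-like 4 and CD8 were higher and EpCAM and CD104 lower under both treatments, and these 6 are the only antibodies called in both. The others called over all kept cells were CD205 (1.33), CD45R (0.84), CD24 (0.71), CD38 (0.67) and CD54 (0.60), which were higher, and the AH control immunoglobulin (-0.70), which was lower, and CD205 had a negative difference (-0.081) without the high-count barcodes. Of the 61 antibodies, 41 kept the same sign. The barcodes with very high counts were mostly acinar-like (40) or in clusters without a name (37), and 14 were myeloid-like. Without them the median difference between glands of the same group (absolute, log2) fell from 0.18 to 0.13 in controls and from 0.27 to 0.14 in double mutants, and the whole-gland antibody values and class shares that follow leave them out unless stated.

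**Figure D2:**
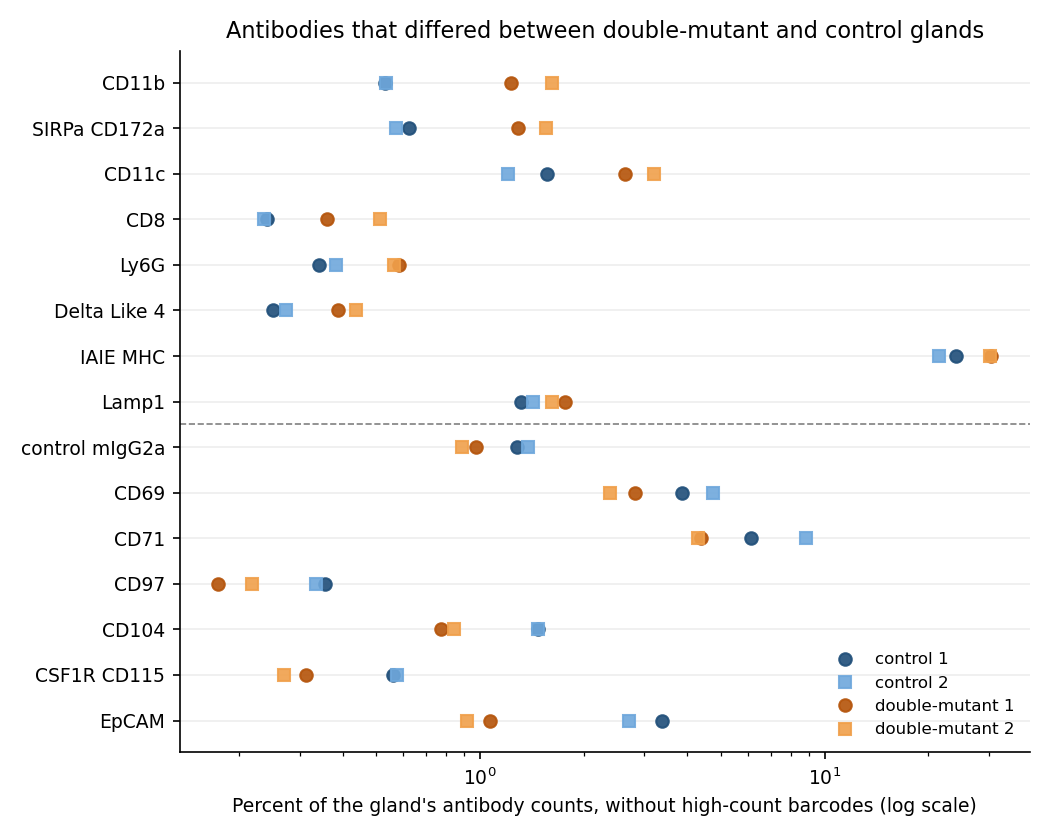
Percent of a gland's antibody counts (x axis, log scale, without high-count barcodes) for 15 of the 16 antibodies called in that comparison, one point per gland, with the 8 higher in double mutants above the dashed line. CD11b stands at 0.531% and 0.536% in controls and at 1.23% and 1.62% in double mutants, and EpCAM at 3.37% and 2.70% against 1.07% and 0.916%.

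Several antibodies against proteins known from myeloid cells were higher, although the macrophage receptor CSF1R was lower and CX3CR1 (-0.26) and CD16/32 (-0.034) did not pass the test. CD11b, the integrin αM of monocytes, macrophages and neutrophils, took 0.531%, 0.536%, 1.23% and 1.62% of the antibody counts (1.52 ± 0.17, adjusted p = 0.0088). SIRPα, the receptor for the CD47 signal, took 0.625%, 0.571%, 1.29% and 1.56% (1.35 ± 0.15, adjusted p = 0.0088), and CD11c, the integrin αX, 1.57%, 1.21%, 2.65% and 3.20% (1.17 ± 0.20, adjusted p = 0.019). Each pair of groups was separate. IA/IE was the antibody with the most counts, at 24.0%, 21.5%, 30.4% and 30.3% (0.51 ± 0.099, adjusted p = 0.030), but over all kept cells its difference had an adjusted p of 0.47. Ly6G, carried by neutrophils, rose from 0.341% and 0.383% to 0.584% and 0.563% (0.76 ± 0.099, adjusted p = 0.0098), and the Notch ligand Delta-like 4 from 0.250% and 0.274% to 0.388% and 0.436% (0.75 ± 0.12, adjusted p = 0.018). CD8, the coreceptor of cytotoxic T cells, took 0.241%, 0.237%, 0.361% and 0.515% (0.97 ± 0.21, adjusted p = 0.036). The 4 control immunoglobulins took 0.384% to 1.38% of a gland's counts, so Ly6G, Delta-like 4 and CD8 lay within or below their range. CD11b and SIRPα also lay within it in both controls and double-mutant 1, and above it only in double-mutant 2. CD11c lay within it in control 2. The transcript of Delta-like 4, Dll4, stood at 2.29, 0, 0 and 0 CPM. In cells with Xist none of the 8 antibodies called higher passed the test, and of all 61 antibodies 0 were higher and 4 lower. CD11b stood there at 0.42, SIRPα at 0.44 and CD11c at 1.04 (adjusted p = 0.44, 0.41 and 0.11), while IA/IE (-0.38), Ly6G (-0.23), Delta-like 4 (-0.60) and CD8 (-0.048) had the opposite sign. Without any 1 gland CD11b and SIRPα still passed, but CD11c (1.32 without double-mutant 1 and 0.99 without double-mutant 2) and IA/IE (0.53 and 0.48) did not without either double mutant, nor did Delta-like 4 (0.63) and CD8 (0.66) without double-mutant 2. Over all kept cells CD11b (1.13) and SIRPα (1.26) lost their calls without control 1.

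The epithelial proteins EpCAM and CD104 fell, but not every antibody with high shares in epithelial classes did. CD24, highest in basal-like cells (4.88%), differed by 0.35 ± 0.22 (adjusted p = 0.30), and over all kept cells it was called higher (0.71). EpCAM, the adhesion molecule of epithelial cells, took 3.37%, 2.70%, 1.07% and 0.916% (-1.52 ± 0.17, adjusted p = 0.0088). CD104, the integrin β4 that anchors basal cells, took 1.48%, 1.48%, 0.772% and 0.842% (-0.78 ± 0.11, adjusted p = 0.0099). CSF1R, the growth factor receptor of macrophages, was lower as well, at 0.561%, 0.576%, 0.314% and 0.270% (-0.86 ± 0.11, adjusted p = 0.0098). The CSF1R shares also lay within or below the 0.384% to 1.38% of the control immunoglobulins. So did the EpCAM and CD104 shares of both double mutants. Without double-mutant 1 or 2 the EpCAM difference was -1.62 or -1.45 with adjusted p of 0.060 and 0.062, and without double-mutant 1 the CD104 difference was -0.70 (adjusted p = 0.060). CD71, the transferrin receptor, fell by 0.69 ± 0.17, CD69, an activation antigen, by 0.63 ± 0.13 and CD97, an adhesion receptor, by 0.72 ± 0.17 on the log2 scale. The calls of CD71 (adjusted p = 0.23 and 0.25) and CD69 (0.11 and 0.20) were lost without either double mutant and that of CD97 without double-mutant 1 (0.082), and in cells with Xist CD71 (0.12) and CD69 (0.015) had the opposite sign. The lysosomal membrane protein Lamp1 was higher (0.40 ± 0.093, adjusted p = 0.039) and lost its call with any 1 gland left out. A control immunoglobulin, mouse IgG2a, was also lower, at 1.29%, 1.38%, 0.973% and 0.888% (-0.42 ± 0.094, adjusted p = 0.039), so differences of that size were seen without a target. Scaled to the 4 control immunoglobulins, CD11b differed by 1.74, SIRPα by 1.57, EpCAM by -1.31 and CSF1R by -0.65, all with an adjusted p of 0.025, and 12 antibodies were then higher and 2 lower. CD104 (adjusted p = 0.0504), CD69 (0.063), CD71 (0.14), CD97 (0.18) and CD8 (0.051) lost their calls under that scaling.

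Antibody and transcript did not always move together. Of the 16 antibodies called, 12 had a target gene that was tested, and 7 of these target genes differed in the same direction.

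**Figure D3:**
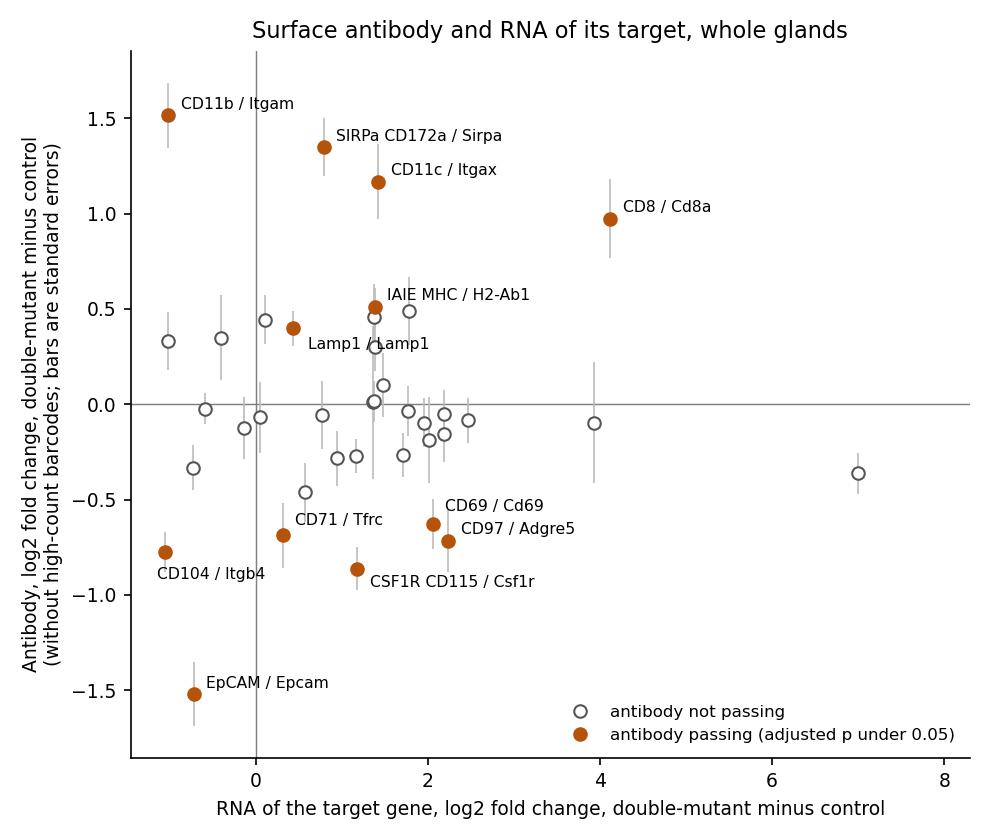
Difference of each antibody (y axis, log2, without high-count barcodes, bars are standard errors) against the difference of its target transcript (x axis, log2, all kept cells) between double-mutant and control glands, for the 38 antibodies whose target was tested, with filled and named points for the 12 called. CD11b lies at 1.52 for the antibody and -1.01 for Itgam, and CSF1R at -0.86 for the antibody and 1.18 for Csf1r.

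CD11b and its transcript went in opposite directions. Over all kept cells, the cells of the transcript values, the antibodies differed by 1.40 (CD11b), -0.32 (CSF1R), -0.39 (CD69) and 0.12 (CD97). CD97 thus had the sign of its transcript there. Itgam (chr7:128062640-128118491) stood at 225, 298, 190 and 239 CPM, a lower call of -1.01 ± 0.28 (adjusted p = 0.046) with overlapping CPM ranges. Of 1419 Itgam UMIs, however, 87.5% lay in clusters without a name and 6.77% in the myeloid-like class. Of the unnamed clusters, the larger was led by secretory genes such as Scgb2b26 and Spt1 and the smaller by ribosomal and predicted genes. Which of them held the Itgam UMIs was not examined. The call was lost without control 2 (-0.79) or either double mutant (-0.93 and -1.10), and in the Drop-seq glands Itgam was higher in double mutants (2.20 ± 0.34, adjusted p = 0.00019). Within the myeloid-like class Itgam stood at 107, 97.6, 223 and 280 CPM (1.25 ± 0.41, adjusted p = 0.13). For CSF1R the opposite held, since 94.96% of 357 Csf1r UMIs were myeloid-like and Csf1r rose (42.9, 27.2, 108 and 154 CPM, 1.18 ± 0.31, adjusted p = 0.040, lost without control 2 at 0.88, double-mutant 1 at 1.35 or double-mutant 2), yet the antibody took 0.155% of the counts of myeloid-like cells and 1.78% of those of Egf+ duct-like cells. Over all kept myeloid-like cells it took 0.135%, 0.123%, 0.151% and 0.176%. The AH control immunoglobulin took more there, 0.212%, 0.177%, 0.431% and 0.398%, so specific binding of the CSF1R antibody was not shown. The CD69 and CD97 antibodies also went against their transcripts, Cd69 (2.06 ± 0.38, adjusted p = 0.017) and Adgre5 (2.24 ± 0.45, adjusted p = 0.020, lost without control 2 at 1.82 or double-mutant 2 at 1.86). For CD11c and CD8 both layers rose, with Itgax at 1.43 ± 0.40 (adjusted p = 0.048) and Cd8a at 4.12 ± 0.82 (adjusted p = 0.020), the latter on 0, 1, 9 and 7 UMIs.

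The antibodies also followed cell classes that had been built from RNA alone. IA/IE took 62.0% of the antibody counts of myeloid-like cells, CD38 19.8% and Ly6C 9.53% of those of endothelial-like cells, CD104 10.6% of those of basal-like cells, EpCAM 14.7% of those of Egf+ duct-like cells, and CD8 2.18% and CD103 2.79% of those of T/NK-like cells. CD11c took 3.28% in T/NK-like and 3.17% in myeloid-like cells, and Ly6G was highest in acinar-like cells (0.660%).

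**Figure D4:**
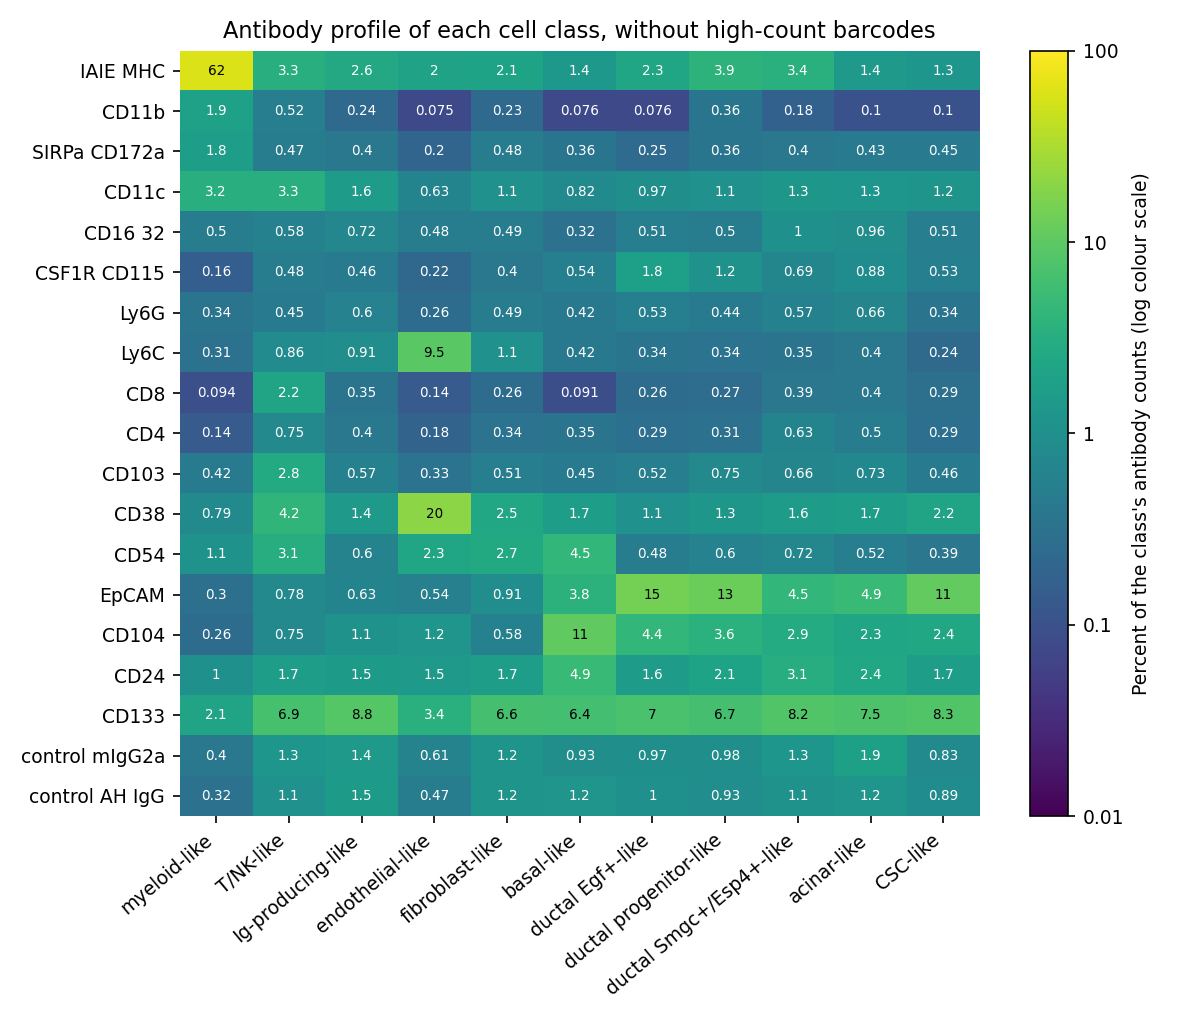
Percent of a cell class's antibody counts (color, log scale, and printed values) taken by selected antibodies (y axis) in each class (x axis), summed over the 4 glands without high-count barcodes. The highest classes are myeloid-like for IA/IE (62.0%), endothelial-like for CD38 (19.8%) and basal-like for CD104 (10.6%).

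Set against the epithelial cells of the same glands, with the gland as a block, myeloid-like cells were higher in 15 of 61 antibodies (24.6%) and lower in 4 (6.56%), with high-count barcodes included. Only named epithelial classes entered. Clusters without a name, which held 28.4%, 41.6%, 10.3% and 8.65% of the cells, were left out. This balance turned with the treatment of the counts, to 9 higher and 14 lower without the high-count barcodes and to 5 higher and 49 lower with library totals. IA/IE differed by 8.45 ± 0.84, CD11b by 6.23 ± 0.35, SIRPα by 4.17, CD11c by 2.94 and CD54 by 2.91. The antibodies lower in myeloid-like cells were CD97 (-1.60), Notch1 (-0.87), CCR9 (-0.76) and CD152 (-0.66). Without the high-count barcodes IA/IE stood at 6.56, CD11b at 5.22, SIRPα at 3.58, CD11c at 2.82 and CD54 at 2.23, all still called, and EpCAM moved from -0.73 (adjusted p = 0.051) to -2.74, a call.

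IA/IE also gave a count of antigen-presenting cells that used no transcript. Cells with at least 25% of their antibody counts from IA/IE made up 15.2%, 12.2%, 26.6% and 31.4% of the glands (102, 89, 170 and 156 cells). Both double mutants were above both controls, with means of 13.7% ± 2.09 in controls and 29.0% ± 3.35 in double mutants (SD, n = 2). An exact permutation test gave p = 0.333, the smallest two-sided p that the 6 arrangements of 4 glands allow. These cells included 86.1% of the myeloid-like class and at most 2.37% of any other. By gland they included 101 of 102, 82 of 82, 169 of 216 and 148 of 181 myeloid-like cells, a smaller part in the double mutants. Fibroblast-like cells, at 3.42%, 3.57%, 8.62% and 9.46%, and T/NK-like cells, at 9.52%, 4.26%, 12.5% and 15.7%, were also more frequent in both double mutants, each with the same exact permutation p of 0.333. Within the T/NK-like class the cluster led by natural killer genes held 50, 30, 37 and 31 cells and that led by Cd3 genes 14, 1, 43 and 47. Shares depend on what dissociation released, and no more than a description of 4 glands is possible.

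The third comparison asked whether cells of one class differed between the genotypes. Myeloid-like cells had calls on both layers, with 32 transcripts higher (1.67%) and 32 lower (1.67%) of 1913 tested, and 7 antibodies higher (11.5%) and 11 lower (18%) of 61 over all kept cells, or 6 higher and 7 lower without the high-count barcodes. They fell into a larger cluster with 91, 71, 143 and 124 cells and a cluster led by Lyz2, Lyz1 and Mrc1 with 11, 11, 73 and 57 cells, so that the double-mutant class was made up differently.

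Among the transcripts called higher in the class, Spp1 stood at 215, 179, 1184 and 1642 CPM (2.80 on the log2 scale), Lyz1 at 26.9, 48.8, 401 and 534 CPM (3.60) and Lyz2 at 2269, 3727, 6735 and 6907 CPM (1.17), the last 2 being leading genes of the smaller cluster. S100a8 was at 0, 0, 418 and 202 CPM, at least 14.4-fold higher, and S100a9 was at least 10.2-fold higher. Ftl2 had no UMI in myeloid-like control cells and was at least 41.3-fold higher in double mutants. Among those called lower were some cytokine and chemokine genes. Ccl3 stood at 4713, 5077, 2306 and 1916 CPM and Ccl4 at 8862, 10106, 4274 and 3864 CPM, each -1.24, and Il1a (-1.46), Cd83 (-1.34), Il1b (-0.76) and Cxcl9 (-2.82) were lower too. Of these calls, Cxcl9 (-2.67 to -2.94) was lost with any 1 gland left out, Il1b without control 2 (-0.62) or double-mutant 2 (-0.60), and S100a9 without double-mutant 1. In the summed glands Il1b had been higher by 1.01 ± 0.25 (adjusted p = 0.037), a call lost with any 1 of the 4 glands left out (adjusted p from 0.055 to 0.18).

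Class II subunits moved apart inside these cells. H2-Eb1 rose from 3599 and 4475 to 9910 and 7976 CPM (1.124 ± 0.17, adjusted p = 0.0045), while H2-Aa fell from 18127 and 16843 to 11346 and 9266 CPM (-0.79 ± 0.16, adjusted p = 0.017). H2-Ab1, at 15724, 15492, 13830 and 10948 CPM (-0.36, adjusted p = 0.25), and Cd74 (-0.43, adjusted p = 0.17) did not pass the test. H2-Ea-ps, the pseudogene copy of the IE α chain that has lost its promoter in some mouse strains, was counted in myeloid-like cells at 470, 146, 22.9 and 26.1 CPM (-3.67 ± 0.62, adjusted p = 0.0070), on only 35, 9, 4 and 4 UMIs, and without control 1 it stood at -2.58 (adjusted p = 0.41). The H2-Aa call was lost without double-mutant 2 (-0.61, adjusted p = 0.15). The RNA of class II genes thus gave no common direction in this class, and the 2 promoters printed above belong to the subunits that differed in opposite directions.

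**Figure D5:**
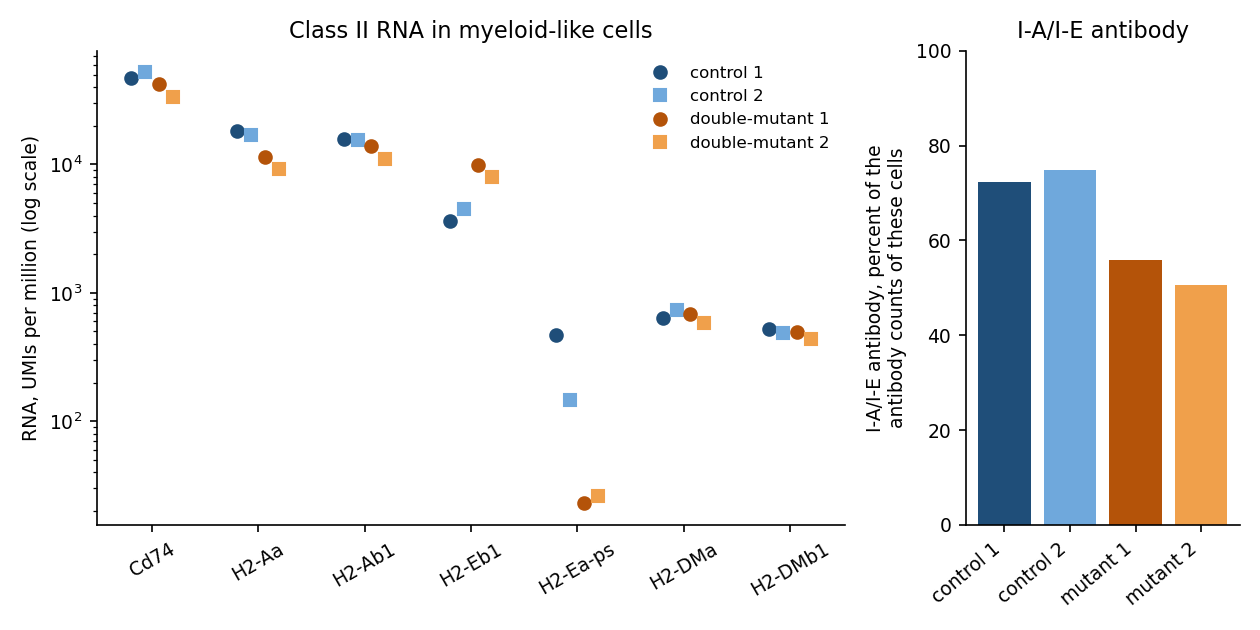
Class II transcripts (left, CPM, log axis, one point per gland) and the IA/IE antibody (right, percent of antibody counts, one bar per gland) in myeloid-like cells of the 2 control and 2 double-mutant glands. H2-Eb1 is higher in both double mutants (9910 and 7976 against 3599 and 4475 CPM), and H2-Aa and the IA/IE antibody are lower in both.

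The IA/IE antibody does not separate IA from IE. By the paper all mice shared the same strain background. Whether that strain is among those without the IE α promoter was not examined here. Whether any IE was at the cell surface was therefore not tested. The IA/IE antibody signal of the myeloid-like cells was lower. It took 72.2%, 74.9%, 55.9% and 50.6% of their antibody counts, or 3715, 2639, 1159 and 929 counts per cell, a difference of -1.45 ± 0.27 (adjusted p = 0.0068) that stood at -1.26 (adjusted p = 0.00097) without the high-count barcodes. With 1 double mutant left out its adjusted p was 0.057 (-1.51) or 0.076 (-1.23). As a gland total without the high-count barcodes the same antibody had been higher, at 30.4% and 30.3% in the double mutants. Ly6G, at 0.0875%, 0.0640%, 0.472% and 0.672% (1.93 ± 0.19, adjusted p = 0.00013), and Ly6C, the antigen of inflammatory monocytes, at 0.101%, 0.0806%, 0.493% and 0.479% (1.45 ± 0.18), were higher per myeloid-like cell. CLEC12A (0.84), NK1.1 (0.84), CD45R (0.98), Notch2 (0.64) and CD95 (0.64) rose as well. Lower antibodies besides IA/IE were Delta-like 4 (-1.22), CD71 (-1.02), PDCA1 (-0.97), CD54 (-0.88), CD29 (-0.87), CD24 (-0.81), EpCAM (-0.77), CD317 (-0.66), CSF1R (-0.64) and CD16/32 (-0.63). Ly6G and Ly6C kept their calls without any 1 gland, whereas each of the other antibodies lost its call without at least 1 gland, most often a double mutant. These differences are relative to the scaling, because 1 antibody held most of the counts. Scaled to library totals, the median antibody moved by 1.01, 43 antibodies were higher and IA/IE alone was lower. The 4 control immunoglobulins differed by -0.19 to 0.19 in this class, with adjusted p of at least 0.44.

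Other classes gave fewer calls. In fibroblast-like cells 6 of 701 transcripts were higher (0.856%) and 14 lower (2%). Ccl2, which attracts monocytes, stood there at 94.99, 178, 673 and 602 CPM (2.27 ± 0.51, adjusted p = 0.040) and the growth factor Igf1 at 285, 490, 1206 and 1171 CPM (1.68 ± 0.35, adjusted p = 0.036). Both calls were lost without control 1 or either double mutant. CD54, the leukocyte ligand ICAM-1, was the only antibody called in these cells, at 1.06%, 0.835%, 3.24% and 3.74% (1.91 ± 0.20, adjusted p = 0.025). In myeloid-like cells the same antibody was lower. In T/NK-like cells 2 of 918 transcripts were higher (0.218%) and 8 lower (0.871%), the higher ones being Cd74 (3, 1, 34 and 158 UMIs, 4.95 ± 0.86, adjusted p = 0.0078) and Igkc.

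Acinar-like cells had 55 transcripts higher (2.01%) and 24 lower (0.878%) of 2735. The class was made up differently in the 2 genotypes. At a clustering resolution of 1.5, 119 of its 126 cells in control 1 and 128 of 136 in control 2 lay in the acinar-like cluster, whereas 42 of 60 in double-mutant 1 and 33 of 40 in double-mutant 2 lay in a cluster without a name led by Epha7, Scgb2b2 and Scgb2b21, so the differences below also compare these clusters. Gcnt1, a transferase that branches mucin sugars, was at 0, 0, 118 and 128 CPM, at least 67.6-fold higher, and Slpi and Clu, both without UMIs in acinar-like control cells, were at least 26.6-fold and 16.6-fold higher, the Clu call being lost without either control. The acinar-like class held only 24 of all 2616 Slpi UMIs (0.917%), and the immunoglobulin-producing class 96.6%. Whether acinar cells made these Slpi transcripts was not tested. The immediate early genes Fos (87.8, 84.9, 272 and 565 CPM, 1.92 ± 0.30, adjusted p = 0.021), Jun (2.28 ± 0.29, adjusted p = 0.012) and Egr1 (2.02 ± 0.33, adjusted p = 0.026) were higher. Cells switch on such genes soon after a stimulus or stress, and the part of dissociation in these values was not tested. Pip, Aqp5 and Prol1 are among the markers from which this class was named, so their levels inside it are partly set by that choice. Pip stood at 36954, 40449, 42080 and 40844 CPM (-0.17 ± 0.25) and Aqp5 at 419, 370, 401 and 283 CPM (-0.43 ± 0.29), neither passing the test (adjusted p = 0.78 and 0.46), while Prol1 differed by -0.82 ± 0.27 (adjusted p = 0.15).

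Duct cells with Smgc and Esp4 had 29 transcripts higher (2.8%) and 6 lower (0.58%) of 1035, but the double-mutant cells of this class held a group that the controls lacked. The cluster has as many leading genes from the markers of another class, luminal Clu+ cells, as of its own (3 and 3). At a resolution of 1.5, 0, 0, 29 and 16 of its 46, 55, 74 and 44 cells split off as luminal Clu+-like, led by Ltf, Clu and Reg3g. Ltf, without a UMI in the control cells, held 382 and 209 UMIs in the double-mutant cells of the whole class and 8 and 8 once the luminal Clu+-like cells were apart, and the antimicrobial lectin Reg3g held 71 and 36 against 0 and 0. Clu stood at 88.7, 135, 5685 and 4412 CPM in the whole class (5.24 ± 0.52, adjusted p = 0.0042) and differed by 3.06 (adjusted p = 0.0079) with those cells apart. Lcn2, which binds bacterial siderophores, went from 44 and 30 UMIs to 5 and 10, and S100a6 from 228 and 67 to 7 and 17. The ameloblast-associated protein Odam kept all its UMIs, 0, 0, 36 and 16, in the cells with Smgc and Esp4 (at least 17.4-fold higher). Without double-mutant 1 no transcript of the whole class passed the test. Esp18, a secreted pheromone-family peptide, fell from 1224 and 1392 to 125 and 0 CPM (-4.19 ± 0.62, adjusted p = 0.015, and -3.39 with the luminal Clu+-like cells apart). It is one of the class's own markers, and the share of such cells depended on the resolution.

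Some transcripts differed alike in classes that should not make them. Igkc, the light chain of plasma cells, was higher in 5 of 5 classes, and the duct kallikrein Klk1b26 was lower in 4 and the acinar Prol1 in 3. In T/NK-like cells Igkc stood at 41.3, 0, 698 and 581 CPM and Prol1 at 4313, 4607, 698 and 708 CPM. In the summed glands Igkc was at 1900, 1488, 44649 and 31191 CPM and Prol1, as given above, was lower in both double mutants, so these class values moved with the gland. The part of free RNA in them was not tested.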

How the data were processed

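RNA and antibody tags of 4 glands were analysed from the count tables deposited by the authors, which hold UMI counts per gene and antibody counts per barcode with no normalization. The authors mapped reads to mm10 with STAR through Drop-seq tools, with the GENCODE annotation extended by Cre and EYFP, removed human spike-in cells and human-mouse doublets by mapping to both genomes, and counted tags with CITE-seq-count. Whether antibody counts are UMIs or reads is not given in the sources used here. No doublet caller was run. Totals of unmatched or malformed tags were left out. Up to 2 barcodes were shared by any pair of glands.

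Sums of the kept cells of a gland, taken whole or class by class, were tested in edgeR 4.0.16 (R 4.3.3) with the quasi-likelihood test, trimmed-mean scaling, filtering by expression and a Benjamini-Hochberg adjusted p under 0.05. DESeq2 1.42.0 was the other tool. Standard errors are the difference divided by the square root of F. Classes came from Leiden clusters in scanpy 1.11.5 and end in "-like". Shares were compared by an exact permutation test over 6 arrangements. A count of 0 was taken to allow 3 counts over a group, and ratios and floors cover counting error only. Pipelines were tested on simulated data. Coordinates and promoters follow GRCm38.p6.

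Named were called antibodies with their target genes, up to 12 genes per direction with at least 50 CPM, non-overlapping groups and the widest difference, members of 22 lists, and the 5 widest differences per direction in each class. Itgam, Il1b, Cd83, H2-Ea-ps and other genes outside this rule were named after their values were seen. The members and lists were chosen with earlier results of these data known. The labels tie each gland to 1 animal, so n was taken as 2 per group, and the number of glands limits the precision. The mixed sex of both control libraries goes against these labels, and their independence was not tested. The values of 1 called antibody and 1 listed gene are not reported here, though the counts of calls include them.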

Additional observations from a re-analysis of the deposited data

Results flagged for a closer look

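Cells with UMIs of Y-linked genes and none of Xist were found in all 3 glands labelled female, where no such cell is expected from the label. Control 2 held 55 of them beside 108 cells with Xist alone, double-mutant 1 held 7 beside 140, and double-mutant 2 held 9 beside 119. Control 1, labelled male, held 44 beside 105 cells with Xist alone. Cells with both numbered 1, 3, 2 and 3 in control 1, control 2, double-mutant 1 and double-mutant 2. In the control glands the Y-linked cells lay in several classes, with 29 acinar-like beside 39 with Xist, 42 in clusters without a name beside 44, 9 myeloid-like beside 42 and 0 basal-like beside 10. Ddx3y, a Y-linked gene, was lower in the double mutants (20, 22, 3 and 1 UMIs, -2.88 ± 0.56, adjusted p = 0.019 by edgeR's quasi-likelihood test). This call was lost with any 1 gland left out (-2.6 to -3.5). Among the 26 Drop-seq glands, 2 went against their sex label. The origin of the mixed cells was not tested.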

How the results depend on the processing

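With 2 glands per group, counts of calls moved with single glands, but no named gene or antibody reversed when 1 of the P70 glands was left out. The 1379 transcripts called in whole glands became 644 with DESeq2, 3107 with library totals, 2356 with no filter, 2191 with sex as a covariate, 495 with all barcodes, 839 at equal UMIs, 96 in cells with Xist and 380 to 1050 without 1 gland. The 12 antibodies called over all kept cells became 21 with DESeq2, 4 with relative log expression, 2 with the sex covariate, 6 with all barcodes, 2 scaled to control IgG, 0 scaled to cell number, 0 in cells with Xist, 4 in such cells without high-count barcodes and 0 to 11 without 1 gland. The 16 without high-count barcodes became 30 with DESeq2 and 6 to 16 without 1 gland. Within classes, transcripts called moved from 64 to 37 (DESeq2), 142 (no filter) and 59 to 182 (without 1 gland) in myeloid-like cells, from 79 to 199 (no filter), 187 (resolution 0.5) and 103 to 315 (without 1 gland) in acinar-like cells, from 35 to 18 (DESeq2), 72 (no filter), 20 (resolution 1.5) and 0 to 94 (without 1 gland) in Smgc+/Esp4+ duct-like cells, from 20 to 9 (DESeq2), 32 (no filter) and 0 to 40 (without 1 gland) in fibroblast-like cells, and from 10 to 29 (library totals) and 13 to 88 (without 1 gland) in T/NK-like cells. Antibodies called moved from 18 to 44 (library totals) and 3 to 23 (without 1 gland) in myeloid-like cells, from 0 to 10 (DESeq2), 9 (library totals), 5 (no high-count barcodes), 6 (resolution 0.5), 7 (resolution 1.5) and 0 to 7 (without 1 gland) in T/NK-like cells, from 0 to 7 (no high-count barcodes) and 0 to 11 (without 1 gland) in acinar-like cells, from 0 to between 0 and 3 (without 1 gland) in Smgc+/Esp4+ duct-like cells, and from 1 to 4 (DESeq2) and 1 to 7 (without 1 gland) in fibroblast-like cells. The 19 antibodies that set myeloid-like against epithelial cells became 54 with library totals and 14 to 31 without 1 gland. The 1894 Drop-seq calls became 4752 with library totals, 2917 with no filter and 1207 without the 2 glands that go against their sex label.

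Same-numbered glands deviated together by a correlation of 0.075 (RNA) and 0.044 (antibodies) over 2 pairs, too few to show whether the numbers pair glands. The main fits of genotype used no pairing. With the replicate block, calls were 5 antibodies in whole glands, and within classes 195 transcripts and 5 antibodies (myeloid-like), 43 transcripts (acinar-like), 55 transcripts and 1 antibody (Smgc+/Esp4+ duct-like), 7 transcripts and 0 antibodies (fibroblast-like) and 2903 transcripts in the Drop-seq glands.

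Differences in the share of cells (percentage points) moved from -9.99 to -30.5 (resolution 0.5), -16.4 (resolution 1.5) and -14.0 (all barcodes) for acinar-like, from -2.003 to -0.597 (resolution 0.5) and -0.583 (all barcodes) for basal-like, from -5.89 to -2.64 (resolution 0.5) and -6.45 (all barcodes) for Egf+ duct-like, from 3.03 to -0.9996 (resolution 1.5) for Smgc+/Esp4+ duct-like, from 1.33 to 1.43 (resolution 1.5) and 1.25 to 1.41 (without 1 gland) for CSC-like, from 0.817 to between 0.627 and 1.01 (without 1 gland) for erythroid-like, and from 21.9 to 15.3 for myeloid-like cells when counted by IA/IE.

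Directions reversed as follows, and the cause was not tested. In cells with Xist Spp1 was at -0.83, H2-Aa at -0.24, CD205 at -0.26, CD8 at -0.12 and Delta-like 4 at -0.25. In such cells without high-count barcodes CD205 was at -1.29, CD24 at -0.47, CD8 at -0.048, Delta-like 4 at -0.60 IA/IE at -0.38, Ly6G at -0.23, CD71 at 0.12, CD69 at 0.015 and the AH control IgG at 0.014, and without high-count barcodes in all cells CD205 was at -0.081. With all barcodes CD24 was at -0.16, CD38 at -0.24, CD54 at -0.11 and the AH control IgG at 0.26. Scaled to cell number CD24 was at -0.10, CD38 at -0.44, CD45R at -0.086, CD54 at -0.43 and CD8 at -0.35. With library totals Bmpr1a was at 0.26, and in myeloid-like cells PDCA1 at 0.024, CD54 at 0.085, CD29 at 0.083, CD24 at 0.17, EpCAM at 0.18, CD317 at 0.33, CSF1R at 0.34 and CD16/32 at 0.36.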

Other observations

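Several gene lists moved little in the summed glands. Of 14 genes of endoplasmic reticulum load 2 rose and none fell, with a median of 0.30, and in the Drop-seq glands 0 of 14 passed the test. No glycolysis or hypoxia gene passed among 10 tested, with a median of 0.42. Of 13 immediate early genes 3 rose, with a median of 0.75. Of 8 vessel genes only Kdr, a receptor for vascular endothelial growth factor, passed (7.43, 1.81, 24.5 and 43.3 CPM, 2.17 ± 0.56, adjusted p = 0.040 by edgeR's quasi-likelihood test), and 7 of 9 rose in the Drop-seq glands. MHC class I presentation rose in 2 of 9 genes, B2m (1.49 ± 0.31, adjusted p = 0.023) and the immunoproteasome subunit Psmb8 (1.25 ± 0.33, adjusted p = 0.044), against 7 of 9 in the Drop-seq glands. The B2m call was lost without either double mutant (1.54 and 1.43). That of Psmb8 was lost without control 2 (0.83) or either double mutant (1.34 and 1.16).

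Copies of the same gene differed in how they were counted. Ftl1 stood at 280, 53.9, 1011 and 1026 CPM at P70 (1.92, adjusted p = 0.069), beside Ftl2 at 0, 0, 162 and 367 CPM, and in the Drop-seq glands the median Ftl1 level was 410 CPM in controls and 417 CPM in double mutants while that of Ftl2 was 0.511 and 41.7 CPM. H2-Ea-ps was at a median of 3.61 CPM in Drop-seq controls and 1.73 CPM in double mutants. The CD74 antibody did not pass the test (0.580%, 0.614%, 0.537% and 0.592% of antibody counts, 0.016 ± 0.11, adjusted p = 0.90), while its transcript rose by 1.38 ± 0.30.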
